A study of Homo sapiens with 10 samples.

Results

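The protein kinase PTK6 was added to SK-hep1 cells that carried the Y523F mutant of PSPC1, and the transcriptomes with and without it were read from 2 of the 10 RNA-Seq libraries of the study, those labelled PSPC1-Y523F and PSPC1-Y523F/PTK6. The 2 libraries are defined by their labels, were chosen with earlier results of these data known, and every gene of the tables was read in both. SK-hep1 is a human cell line that the labels call hepatocellular carcinoma. Both libraries come from cells given a PSPC1 construct with the substitution Y523F, tyrosine to phenylalanine, and the second library's cells also received PTK6. The constructs were introduced by plasmid transfection, the study describes SK-hep1 as deficient in PSPC1, and the labels do not say whether pools or single clones were sequenced. The other SK-hep1 libraries, mock control, PSPC1 and PSPC1/PTK6, serve below as a frame, and the pair of PSPC1/PTK6 against PSPC1 shows the addition of the same kinase to the wild-type protein. With 1 library per condition, no difference below has a replicate check, and p-values are not given.

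PSPC1 is an RNA-binding protein of the DBHS family. Together with NONO and SFPQ it assembles on the long noncoding RNA NEAT1 into paraspeckles, nuclear bodies that hold back certain proteins and RNAs. PTK6 is a nonreceptor tyrosine kinase, related to the SRC kinases, that lacks a membrane anchor and therefore occurs in the nucleus as well as in the cytoplasm. The tyrosine lies in the C-terminal part of PSPC1, and a phenylalanine in its place cannot be phosphorylated. The study asked how the kinase changes cells when this tyrosine is missing.

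The reads on genes numbered 21087578 in the PSPC1-Y523F library and 24278662 in the PSPC1-Y523F/PTK6 library, within the range of 20222367 to 24278662 over the 5 SK-hep1 libraries. Levels are given in FPKM, which corrects reads for gene length and library size, after quantile normalization, which gives every library the same distribution of values. Differences are log2 ratios of FPKM + 1, PSPC1-Y523F/PTK6 over PSPC1-Y523F, and only genes averaging 1 FPKM or more between both libraries were kept. Where a ratio of reads is given, it is the ratio of the shares of reads in the 2 libraries, with a 95% exact binomial interval that covers counting error only. Most hepatocyte markers of the label were absent or near the floor. Of 36 such genes 4 passed the filter, and albumin (ALB) and transthyretin (TTR) had 0 reads in all 5 SK-hep1 libraries. The plasma protein gene SERPINA1 was clearly present, with 515 reads in PSPC1-Y523F and 1098 in PSPC1-Y523F/PTK6. The enzyme gene CPS1 had 138 and 15 reads, a log2 difference of −1.77. Endothelial genes were partly present, with 8 of 26 above the filter, among them ENG, at 240 FPKM in PSPC1-Y523F and 205 FPKM in PSPC1-Y523F/PTK6, and GATA2, at 87.2 FPKM and 74.5 FPKM. Of the 8, 1 was at least 2-fold higher and 1 lower, beside 3.78% and 2.2% of all genes. The higher one was SOX18, with 511 and 1439 reads and a log2 difference of 1.20. The lower one was MCAM, with 183 and 40 reads and a difference of −1.78. The defining endothelial gene PECAM1 had 2 and 0 reads and the receptor gene KDR 0 reads in both. Of 15 markers of immune cells, fibroblasts and erythroid cells 3 passed the filter, and in deposited FPKM the 15 summed to 28.1 in PSPC1-Y523F and 68.3 in PSPC1-Y523F/PTK6. Most of their reads were of PDGFRB, with 508 and 1439, and CD14, with 154 and 439, while the leukocyte gene PTPRC had 1 and 0 reads, and CD3E 0 in both. The 6 fibroblast markers summed to 21.3 and 51.6 in deposited FPKM, and beside PDGFRB they were COL1A1 with 89 and 208 reads, FAP with 0 and 25, LUM with 3 and 10, PDGFRA with 0 and 2 and DCN with 1 in both.

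Both introduced genes were higher in the library that received the kinase. PTK6 had 230 reads in PSPC1-Y523F and 679 reads in PSPC1-Y523F/PTK6, against 277 in mock, 307 in PSPC1 and 1060 in PSPC1/PTK6. In deposited FPKM this was 4.09 (95% exact Poisson interval 3.58 to 4.66) without added PTK6 and 10.49 (9.72 to 11.3) with it, a log2 difference of 1.12. PTK6 was thus higher in the library labelled as receiving it, and the libraries without added PTK6 also had reads of it. PSPC1, the other construct, differed more. Its reads numbered 71 without and 2539 with PTK6 on the mutant, and 209 without and 930 with PTK6 on wild-type PSPC1, against 0 in mock. In mock, 3 reads would have given 0.0938 FPKM. PSPC1 was thus at 2.28 FPKM (1.78 to 2.88) in the PSPC1-Y523F library and at 70.9 FPKM (68.2 to 73.7) in PSPC1-Y523F/PTK6, a ratio of reads of 31.1 (24.5 to 39.9) and a log2 difference of 4.25. The counts do not separate the introduced PSPC1 from the cell's own gene, nor Y523F from the wild-type codon. The 2 libraries differ in the amount of PSPC1 as well as in PTK6, and for every gene described below these differences cannot be told apart.

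Among the 12398 genes that passed the filter, 469 were at least 2-fold higher in PSPC1-Y523F/PTK6, which is 3.78% of the genes tested, and 273 were at least 2-fold lower, which is 2.2%. Together this is 5.98% of the genes. The median log2 difference of these genes was −0.03, with quartiles of −0.30 and 0.25. Quantile normalization gives both libraries the same distribution, so a median near 0 is largely set by the method. Large differences were mostly increases. At least 4-fold higher were 70 genes and at least 4-fold lower 26, and at least 8-fold higher were 21 genes against 4 that were lower by that much. The genes at least 8-fold higher included the introduced PSPC1, several mitochondrial genes and several genes named RRP. Values of these mitochondrial and RRP genes may not be levels of transcription, as described below. Of the 469 higher genes 393 were protein coding, and of the 273 lower genes 166 were. Low counts weighed more on the lower genes: 91 of these and 88 of the higher genes rested on fewer than 100 reads in both libraries together. The interval of the read ratio lay above 1 for 455 of the higher genes and below 1 for 245 of the lower ones.

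**Figure D1:**
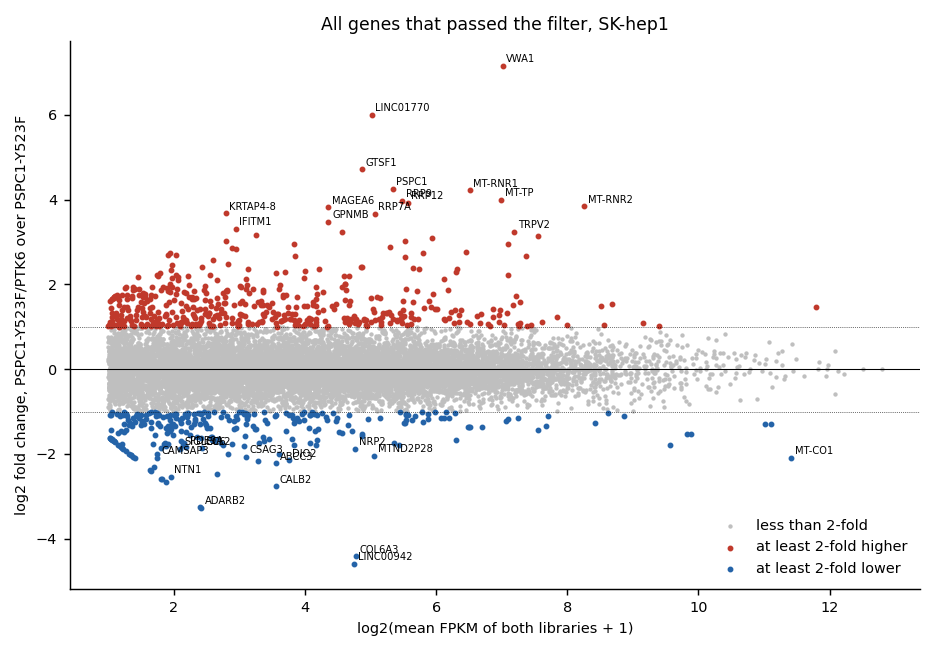
Each point is 1 of 12398 genes, with the log2 of the mean FPKM of both libraries plus 1 on the horizontal axis and the log2 difference between PSPC1-Y523F/PTK6 and PSPC1-Y523F on the vertical axis. The 469 genes at least 2-fold higher are red and the 273 at least 2-fold lower are blue, and VWA1 stands highest at 7.16.

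The largest log2 difference with 1 added was in VWA1 (ENSG00000179403, GRCh38 chromosome 1, 1434861 to 1442882), which encodes a secreted matrix protein with a von Willebrand factor A domain. VWA1 had 24 reads in PSPC1-Y523F and 12858 in PSPC1-Y523F/PTK6, against 109 in mock, 31 in PSPC1 and 346 in PSPC1/PTK6. Its level went from 0.795 to 255 FPKM, a log2 difference of 7.16 and a ratio of reads of 465 (313 to 727), so that a gene at the edge of detection in 1 library was among the abundant genes of the other. The noncoding LINC01770 (1430539 to 1434573) lies next to VWA1 on the opposite strand, start to start, and had 705 reads in PSPC1-Y523F/PTK6, 3 in PSPC1/PTK6 and 0 in the other 3 SK-hep1 libraries. Against a floor of 3 reads in PSPC1-Y523F this is at least 204-fold higher. With 0.1 added in place of 1, LINC01770 differed by 9.28 and VWA1 by 8.16. On the other side of VWA1, ATAD3C had 1 read in PSPC1-Y523F and 30 in PSPC1-Y523F/PTK6. Beyond it, ATAD3B had 3264 and 1737 reads, an unnamed pseudogene between ATAD3B and ATAD3A 3 and 45, and ATAD3A 4406 and 3608. On the side of LINC01770, MRPL20 had 1230 and 1163 reads and CCNL2 1486 and 1121. These neighbours were looked up after the values of VWA1 had been seen.

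For several other genes at the top of the list the PSPC1-Y523F/PTK6 library was also the highest of the 5. GTSF1, which encodes a factor of the piRNA pathway normally active in germ cells, had 13 reads in PSPC1-Y523F and 906 in PSPC1-Y523F/PTK6, with 0, 18 and 4 reads in mock, PSPC1 and PSPC1/PTK6. The cancer-testis antigen MAGEA6 went from 35 to 1052 reads, and the other SK-hep1 libraries had 3 to 115. Its reads are uncertain, since MAGEA6 and MAGEA3 are near-identical copies. MAGEA3 itself had 1340 and 1582 reads. GPNMB, a glycoprotein of melanosomes and lysosomes, went from 38 to 796 reads and from 2.38 to 36.6 FPKM. The calcium-permeable channel gene TRPV2 had 422 reads in PSPC1-Y523F and 5544 in PSPC1-Y523F/PTK6, against 1398 in mock, 532 in PSPC1 and 1158 in PSPC1/PTK6, so that it was the lowest of the 5 in the former and the highest in the latter. Its levels were 26.8 and 263 FPKM. KRTAP4-8, a hair keratin-associated protein gene of a family of close copies, differed from these. It had 189 reads with PTK6 added to PSPC1-Y523F and 396 with PTK6 added to PSPC1, and 0 reads in the 3 libraries without added PTK6. With 3 reads as the floor, this is at least 54.7-fold higher in PSPC1-Y523F/PTK6 than in PSPC1-Y523F.

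The genes with the lowest log2 differences included matrix and guidance genes. LINC00942, a long noncoding RNA gene, had 2424 reads in PSPC1-Y523F and 46 in PSPC1-Y523F/PTK6, against 121 in mock, 2932 in PSPC1 and 1976 in PSPC1/PTK6, a log2 difference of −4.59. COL6A3, the largest chain of collagen VI, had 5207 and 125 reads, against 522 in mock, 1497 in PSPC1 and 42 in PSPC1/PTK6. Its level went from 51.5 to 1.46 FPKM, a log2 difference of −4.42, and the PSPC1-Y523F library held the highest value of the 5. ADARB2, a brain relative of the RNA-editing adenosine deaminases, had 309 reads in PSPC1-Y523F and 0 in PSPC1-Y523F/PTK6, at least 119-fold lower with 3 reads as the floor. In PSPC1/PTK6 it had 1 read, in PSPC1 348 and in mock 127. Both libraries with added PTK6 thus had at most 1 read of it.

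Further down the list, the calcium-binding protein gene CALB2 went from 314 to 31 reads, the axon guidance ligand NTN1 from 297 to 6, and NRP2, a receptor of semaphorins and VEGF-C, from 1562 to 395. All 3 were also low in PSPC1/PTK6, with 46, 25 and 364 reads, and higher in PSPC1, with 446, 322 and 1305. The drug exporter ABCC3 had 552 and 93 reads, and the thyroid hormone-activating deiodinase DIO2 829 and 158. In both, mock was low as well, with 88 and 49 reads, while PSPC1 and PSPC1/PTK6 had 549 reads or more of each. CAMSAP3, which binds microtubule minus ends, had 176 and 10 reads, the phosphodiesterase PDE9A 161 and 26, and the sialic acid-binding lectin SIGLEC6 141 and 20. CSAG3, a cancer-testis gene with a near-identical copy, had 186 and 33 reads and is uncertain. The nuclear pseudogene MTND2P28 (1095 and 247 reads) shares its sequence with the mitochondrial MT-ND2 and is uncertain too.

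**Figure D2:**
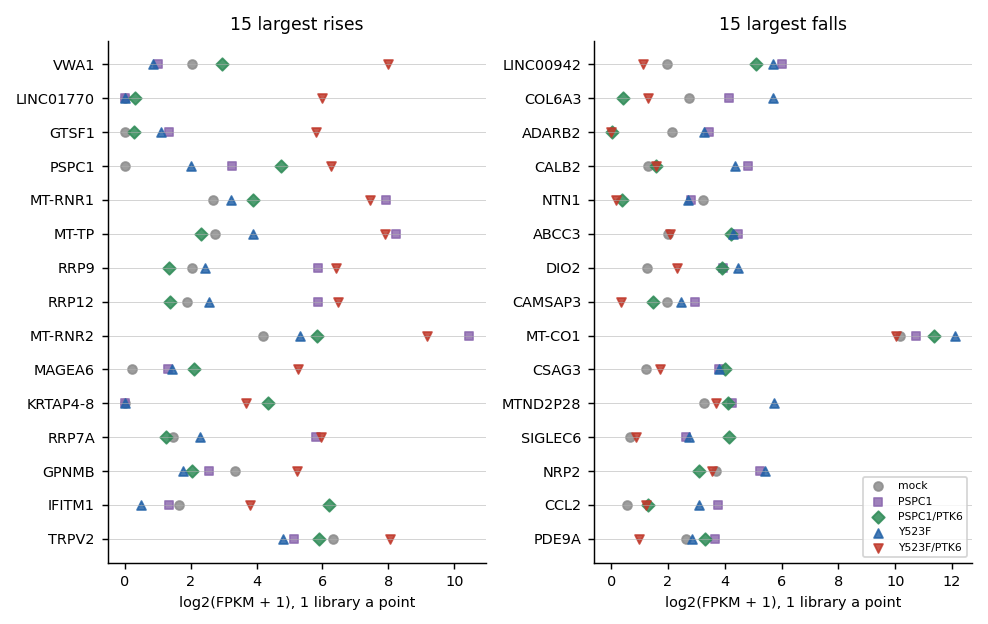
Levels, as log2 of FPKM plus 1, of the 15 genes with the highest and the 15 with the lowest log2 difference in the 5 SK-hep1 libraries, with 1 point per library. For VWA1, LINC01770 and GTSF1 the PSPC1-Y523F/PTK6 library stands apart from the other 4, while for MT-RNR1, MT-RNR2, MT-TP, RRP9, RRP12 and RRP7A it stands beside PSPC1.

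Interferon-stimulated genes were mostly higher in PSPC1-Y523F/PTK6. Interferons signal through a complex that includes STAT2 and IRF9 and binds a short element in the promoters of genes that block viral entry, replication and translation. The promoters of 3 list members that were higher with PTK6 and of the 1 member that was lower are printed here to show that these letters stood in both. Each covers 250 bases before to 50 bases after the transcription start, 5′ to 3′ on the strand of the gene, from RefSeq on GRCh38.p14. Capitals mark the core of the interferon-stimulated response element, GAAA followed after any 2 bases by GAAA again, searched on both strands, where overlapping matches run together. IFI6 lies at chr1:27672143-27672442 (minus strand), IFITM1 at chr11:313790-314089 (plus strand), ISG15 at chr1:1013247-1013546 (plus strand) and BST2 at chr19:17405581-17405880 (minus strand).
IFI6: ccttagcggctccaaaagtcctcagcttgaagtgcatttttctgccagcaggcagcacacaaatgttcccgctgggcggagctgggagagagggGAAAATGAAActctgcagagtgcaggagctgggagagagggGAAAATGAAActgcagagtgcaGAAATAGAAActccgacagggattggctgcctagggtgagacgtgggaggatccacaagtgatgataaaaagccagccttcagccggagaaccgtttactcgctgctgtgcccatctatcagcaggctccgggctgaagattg
IFITM1: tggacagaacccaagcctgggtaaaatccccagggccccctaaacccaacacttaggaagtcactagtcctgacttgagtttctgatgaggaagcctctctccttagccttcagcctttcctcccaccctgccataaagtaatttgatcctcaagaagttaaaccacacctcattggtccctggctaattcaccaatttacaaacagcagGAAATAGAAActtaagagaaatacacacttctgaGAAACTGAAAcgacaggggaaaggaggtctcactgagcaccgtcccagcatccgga
ISG15: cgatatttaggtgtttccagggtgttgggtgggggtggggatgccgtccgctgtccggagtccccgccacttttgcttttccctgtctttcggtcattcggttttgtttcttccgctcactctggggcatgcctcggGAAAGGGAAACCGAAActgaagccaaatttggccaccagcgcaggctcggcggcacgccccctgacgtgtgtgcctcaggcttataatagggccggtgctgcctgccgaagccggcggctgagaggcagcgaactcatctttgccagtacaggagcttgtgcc
BST2: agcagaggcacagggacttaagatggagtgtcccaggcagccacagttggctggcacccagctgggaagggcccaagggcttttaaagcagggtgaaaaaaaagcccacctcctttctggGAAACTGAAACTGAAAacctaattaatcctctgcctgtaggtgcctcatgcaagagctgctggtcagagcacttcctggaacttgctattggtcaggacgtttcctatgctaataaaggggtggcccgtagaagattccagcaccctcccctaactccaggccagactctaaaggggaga
IFI6 held 3 matches and IFITM1, ISG15 and BST2 2 each. Of the 41 genes of the interferon list, 32 had a promoter in the table, and 23 of these held the letters in at least 1 window, 71.9%, against 4.38% of all 27303 gene symbols. Among the members at least 2-fold higher with PTK6, 11 of 13 held them, and among the other members 12 of 19. A match is a description of the sequence and not of binding.

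Of the 41 genes, 35 passed the filter, 16 were at least 2-fold higher in PSPC1-Y523F/PTK6 and 1 was at least 2-fold lower, beside 3.78% and 2.2% of all genes. The median log2 difference of the 35 was 0.99, beside −0.03 over all genes, and 34 were above 0. The transmembrane protein gene IFITM1, which blocks the fusion of viruses with cell membranes, had 4 reads in PSPC1-Y523F and 161 in PSPC1-Y523F/PTK6, against 22 in mock, 15 in PSPC1 and 1082 in PSPC1/PTK6. OAS1, a sensor of double-stranded RNA, had 16 and 363 reads, and the mitochondrial protein gene IFI6 479 and 5025. IFI6 stood at 30.1 FPKM in PSPC1-Y523F and 241 FPKM in PSPC1-Y523F/PTK6, beside 165 in mock, 58.1 in PSPC1 and 699 in PSPC1/PTK6. These genes had their lowest value of the 5 in PSPC1-Y523F.

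Among the effectors, TRIM22 went from 13 to 208 reads, IFI27 from 20 to 189, SAMD9L from 7 to 217 and SAMD9 from 84 to 551, and all 4 were lowest in PSPC1-Y523F among the 5 libraries. ISG15, a ubiquitin-like modifier, had 1114 and 4162 reads, a log2 difference of 1.57, and IFIT1, which binds foreign RNA ends, 537 and 1845, a difference of 1.40. IFI44, PARP9, PARP14 and IFITM2 differed by 1.35, 1.16, 1.13 and 1.01. Of the sensors of viral RNA, IFIH1 differed by 1.00 and DDX60 by 1.41, while RIGI, with 249 and 527 reads, differed by 0.69. The transcription factor IRF7, which amplifies interferon production, had 190 and 1447 reads and a difference of 2.42, and STAT2 and IRF1 differed by 0.85 and 0.50. BST2, or tetherin, which holds budding viruses at the cell surface, went the other way, from 757 to 218 reads and by −1.74, and the other libraries had 150 reads in mock, 1331 in PSPC1 and 2987 in PSPC1/PTK6.

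The levels of the interferon genes over the 5 libraries put these differences in a frame. Relative to mock, the median of the 35 genes was −0.88 in PSPC1-Y523F and 0.16 with PTK6 added, −0.58 in PSPC1 and 1.502 in PSPC1/PTK6 on the log2 scale. PSPC1-Y523F held the lowest value of the 5 for 30 genes, and PSPC1/PTK6 the highest for 33. PSPC1-Y523F/PTK6 was within 2-fold of mock for 30 of the 35 genes and held the highest value for 0. By these medians PSPC1-Y523F lay further from mock than PSPC1-Y523F/PTK6 did. In the wild-type pair 39 members passed, 31 were at least 2-fold higher in PSPC1/PTK6 and 0 were lower, beside 3.09% and 1.87% of all genes there, and their median was 2.34.

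Antigen presentation and inflammatory cytokines followed on a smaller scale. In the MHC class I list 4 of 17 genes were at least 2-fold higher and 0 lower, beside 3.78% and 2.2% of all genes, with a median of 0.53. Among them, the heavy chain genes HLA-B and HLA-F differed by 1.05 and 1.30, and the immunoproteasome subunit gene PSMB9 by 1.35. HLA genes are close copies of each other and their reads are uncertain. The light chain gene B2M had 10344 and 15252 reads and a difference of 0.38, and the chaperones of peptide loading CALR and PDIA3 differed by −0.70 and −0.51. In the list of NF-κB targets 6 of 21 were higher and 1 lower, against the same shares of all genes, with a median of 0.55. The cytokine genes were IL6, with 152 and 578 reads, IL11, with 70 and 386, IL1A, with 12 and 130, IL1B, with 25 and 99, and IL32, with 53 and 319, and the adhesion receptor gene ICAM1 had 470 and 1363 reads. The monocyte chemokine gene CCL2 was the lower one, with 108 and 19 reads. The chemokine gene CCL5 had 5260 and 7544 reads and a difference of 0.28, where PSPC1/PTK6 had 115112.

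Of the genes for cholesterol synthesis, nearly all were higher by less than 2-fold. Cholesterol is made from acetyl-CoA through mevalonate and squalene, and SREBP2 (SREBF2) switches the enzyme genes on together when sterols are scarce. In PSPC1-Y523F/PTK6, 19 of the 20 synthesis genes were above PSPC1-Y523F, with a median log2 difference of 0.62. Of the 20, 2 were at least 2-fold higher and 0 lower, beside 3.78% and 2.2% of all genes. Farnesyl diphosphate synthase (FDPS) had 827 and 2292 reads and a difference of 1.21, and the methylsterol oxidase MSMO1 419 and 1338 reads and a difference of 1.35. HMGCS1 and DHCR7, at the start and the end of the pathway, differed by 0.95 each, and FDFT1 by 0.85. TM7SF2 was the exception, at −0.54. SREBF2 differed by 0.43. In the wild-type pair the 20 synthesis genes had a median of −0.43 and 0 passed 2-fold. Of these 20, 18 were lower in PSPC1/PTK6 than in PSPC1. The opposite direction in the 2 pairs was not tested.

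**Figure D3:**
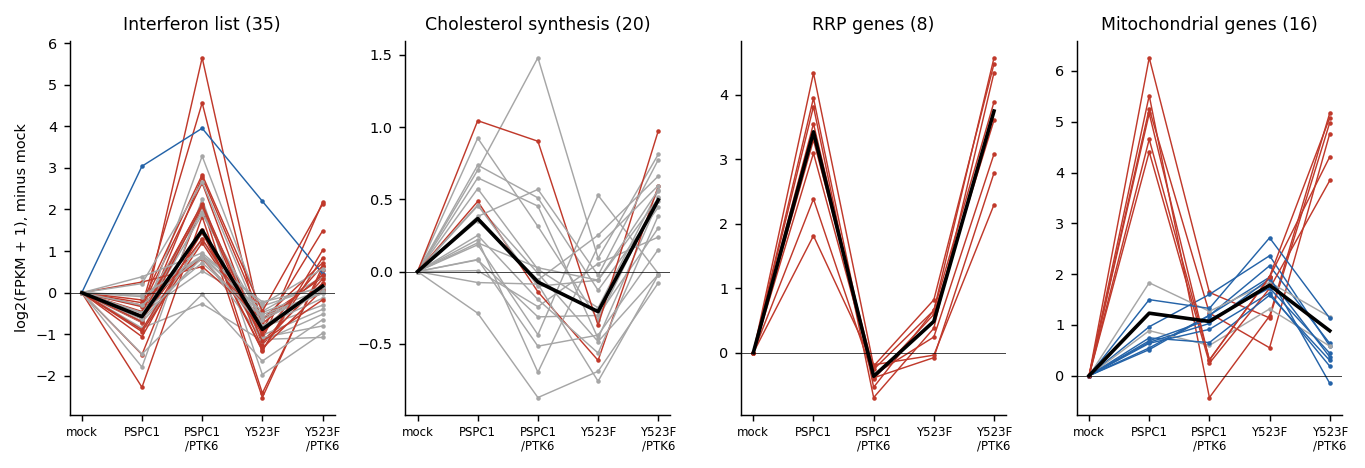
Levels in the 5 SK-hep1 libraries, as log2 of FPKM plus 1 minus the mock value, for 35 interferon, 20 cholesterol synthesis, 8 RRP and 16 mitochondrial genes, with 1 line per gene and the median in black. Red and blue lines are genes at least 2-fold higher and lower in PSPC1-Y523F/PTK6 than in PSPC1-Y523F. The interferon median lies at −0.88 in PSPC1-Y523F, 0.16 with PTK6 added and 1.502 in PSPC1/PTK6, and the RRP genes are high in PSPC1 and PSPC1-Y523F/PTK6.

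Matrix genes differed in both directions, also within 1 protein complex. Of 52 genes of the extracellular matrix list 10 were at least 2-fold higher and 3 lower, beside 3.78% and 2.2% of all genes, and the median was −0.12. With 0.1 added in place of 1, or with counts scaled by TMM, 6 were lower. Collagen VI is built from 3 kinds of chain, encoded by COL6A1, COL6A2 and COL6A3. COL6A1 was higher in PSPC1-Y523F/PTK6, with 229 and 855 reads, and so was COL6A2, with 1645 and 4537, by 1.48 and 1.19, while COL6A3 was lower by −4.42. In PSPC1/PTK6 against PSPC1 the 3 genes differed by 2.38, 1.21 and −3.74. Enzymes that cross-link collagen and elastin were mostly higher, 5 of 9 past 2-fold upward, where 3.78% of all genes were, with a median of 1.35. Lysyl oxidase (LOX) had 158 and 1243 reads, LOXL4 29 and 274, LOXL1 1284 and 4088, the peroxidase PXDN 217 and 1377, and the lysyl hydroxylase PLOD2 773 and 2440. LOXL2 had 25793 and 22192 reads and a difference of −0.47. Fibrillin (FBN1) went from 27 to 368 reads. Tenascin C (TNC) went from 826 to 241 reads and COL12A1 from 1175 to 395. The proteases MMP15 and PLAT, the tissue plasminogen activator, were higher by 1.16 and 1.05.

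The study followed epithelial and mesenchymal genes, since PSPC1 is studied there as a driver of the epithelial-mesenchymal transition, in which epithelial cells lose junctions and become motile. In the mesenchymal list 7 of 32 genes were higher and 3 lower, with a median of 0.13, and in the epithelial list 4 of 23 were higher and 1 lower, with a median of 0.12. Of all genes 3.78% were higher and 2.2% lower. The epithelial count of higher genes was 1 when 5 was added or the filter raised to 5 FPKM, and 7 with counts scaled by TMM. The higher mesenchymal genes were LOX, FBN1, COL6A1, COL6A2, the receptor gene PDGFRB (508 and 1439 reads), the surface glycoprotein gene THY1 (384 and 1075) and the actin-binding CALD1 (log2 difference 1.17), and the lower ones COL6A3, TNC and TGFBI. On the epithelial side keratin 7 (KRT7) went from 78 to 499 reads, claudin 1 (CLDN1) from 58 to 285, P-cadherin (CDH3) from 8 to 54 and the factor ELF3 from 4 to 91, and the laminin chain gene LAMB3 from 37911 to 20415. KRT7 lies in a row of 4 higher neighbours on chromosome 12, KRT7, KRT86, KRT87P and KRT81.

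The genes that the study assayed itself were measured there mostly as proteins, while RNA was read here. Those given in this paragraph differed by less than 2-fold where they passed the filter. Vimentin (VIM) had 13224 and 16303 reads and a difference of 0.15, β-catenin (CTNNB1) 4571 and 5941 reads and 0.17, and plakoglobin (JUP) 1015 and 1866 reads and 0.67. The transcription factor genes SNAI2, TWIST1 and ZEB1 differed by −0.01, −0.09 and 0.74. E-cadherin (CDH1) had 0 and 1 reads, N-cadherin (CDH2) 3 and 2 and SNAI1 0 and 1, so a change in them was not detectable at this depth, and the same holds for NANOG, SOX2 and WNT1 with 0 reads in both, for WNT3A with 1 and 0 and for POU5F1 with 4 and 7. AXIN2, a Wnt target, had 6 and 0 reads, a read ratio with an upper bound of 0.738, and lay below the filter in both libraries. MYC differed by −0.10, CCND1 by −0.11, BIRC5 by 0.12, TGFB1 by 0.10, SMAD2 and SMAD3 by −0.07 each and MET by −0.17. EGFR, which is not among the assays the study describes, differed by 0.29.

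In the Wnt list 6 of 37 genes were higher and 1 lower, beside 3.78% and 2.2% of all genes, with a median of 0.09. With 5 added 2 were higher, and with the filter raised to 5 FPKM 3 were. Of the ligands, WNT5A, which mostly signals without β-catenin, had 53 and 331 reads, and WNT5B, already abundant, 5959 and 14135. The nuclear partners of β-catenin TCF7 and TCF7L1 had 21 and 80 and 597 and 1597 reads, the R-spondin receptor LGR4 16 and 173, and the secreted protein DKK3 2319 and 5767. NKD2, a feedback inhibitor, had 90 and 24. Of the 10 genes listed as Wnt receptors above the filter 0 passed 2-fold, where LGR4 was listed among the targets and feedback genes instead. In the TGF-β list 1 of 35 genes was higher and 2 were lower, near the 3.78% and 2.2% of all genes, with a median of −0.02. LTBP3, which stores the latent ligand, was higher by 1.34, and the targets TGFBI and ID2 were lower by −1.12 and −1.20. In the stemness list 3 of 14 genes, CD24, THY1 and ICAM1, were higher and 0 lower, with a median of 0.08, where 3.78% of all genes were higher.

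Among the partners of the introduced proteins, the paraspeckle RNA NEAT1 was lower in PSPC1-Y523F/PTK6. NEAT1 had 1456 reads in PSPC1-Y523F and 412 in PSPC1-Y523F/PTK6, against 731 in mock, 1076 in PSPC1 and 3831 in PSPC1/PTK6, a log2 difference of −1.65 and a ratio of reads of 0.246 (0.220 to 0.274). It was the lowest of the 5 in PSPC1-Y523F/PTK6 and the highest in PSPC1/PTK6. MALAT1, another nuclear long noncoding RNA that was looked up after its values were seen, had 471 and 161 reads, against 172 in mock, 309 in PSPC1 and 1017 in PSPC1/PTK6. Its log2 difference was −1.46, and in the wild-type pair MALAT1 differed by 1.23 and NEAT1 by 1.25. The protein partners NONO and SFPQ differed by 0.04 and 0.29. Of the 18 paraspeckle genes above the filter 2 passed 2-fold, NEAT1 and the introduced PSPC1 itself, where 5.98% of all genes did. Among the 14 other paraspeckle protein genes 0 passed. In the PTK6 list of kinases, substrates, receptors and regulators 2 of 28 were higher, near the 3.78% of all genes, namely PTK6 itself and ERBB3, a receptor that PTK6 is known to act beside, with 285 and 1046 reads and a difference of 1.499. Of the other ERBB genes, the feedback inhibitor LRIG1 had 47 and 393 reads and the ligand EPGN 116 and 26. The integrin genes ITGB3 and ITGB4, with 72 and 468 and 3756 and 13532 reads, were the 2 of 30 adhesion genes past 2-fold, a share near the 5.98% of all genes.

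Growth and stress lists held few genes past 2-fold. Of 46 replication genes 36 were below 0, with a median of −0.40, but 2 passed 2-fold downward, the ribonucleotide reductase subunit gene RRM2 (2940 and 1350 reads) and E2F2 (545 and 245), and 1 upward, the cell cycle inhibitor CDKN1C (66 and 242). These 3 of 46 are near the 5.98% of all genes, and with FPKM as deposited or scaled to the same sum 5 were lower. Of the 38 G2/M genes 0 passed 2-fold, with a median of −0.21, and MYBL2, the most read of them, had 17139 and 13572 reads. Of the 26 p53 genes 0 passed either, and CDKN1A had 9126 and 16793 reads and a difference of 0.68. Of 9 chaperones of the endoplasmic reticulum all were below 0, with a median of −0.82. HSPA5, which encodes BiP, had 45928 and 28383 reads, and CRELD2, with 2634 and 1360, passed 2-fold. The serine synthesis enzyme PHGDH had 1114 and 371 reads. Ferritin heavy chain (FTH1) had 3461 and 11879 reads. Of 33 hypoxia genes 2 were higher, NDRG1 by 1.87 and ANKRD37 by 1.52, and 0 lower, beside 3.78% and 2.2% of all genes. The median of the hypoxia list was 0.0008. The 77 cytosolic ribosomal protein genes had a median of 0.00, and 0 of them passed 2-fold.

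A group of genes that process ribosomal RNA, and the mitochondrial genome, followed a pattern of their own. All 8 genes whose symbol is RRP and a number were at least 2-fold higher in PSPC1-Y523F/PTK6, with a median of 3.12. RRP9, a protein of the U3 particle that trims ribosomal RNA, had 109 reads in PSPC1-Y523F and 2982 in PSPC1-Y523F/PTK6, against 87 in mock, 1701 in PSPC1 and 65 in PSPC1/PTK6. RRP12 had 143 and 3718 reads and RRP7A 104 and 2282, again with high counts in PSPC1, 1967 and 1743, and low counts in mock and PSPC1/PTK6. Summed over the 8 genes, the reads per 1000000 reads of the library (RPM) were 33.2 in PSPC1-Y523F and 588 in PSPC1-Y523F/PTK6, 21.2 in mock, 456 in PSPC1, 18.4 in PSPC1/PTK6 and 22.6 to 30.7 in the 3 Mahlavu libraries, another liver cancer line of the study. The genes lie on 7 chromosomes, with RRP1 and RRP1B both on 21, and the group was formed after the values had been seen. The rRNA methyltransferase gene MRM2 and the methyltransferase genes FTSJ1 and METTL25B showed the same order, with 179 and 512, 500 and 3194, and 62 and 480 reads. Other ribosome biogenesis genes did not. Of 20 such genes in the MYC network list 0 passed 2-fold, with a median of −0.24. NOP56 had 4459 and 3697 reads and fibrillarin (FBL) 5186 and 6668.

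The mitochondrial genome was split. Higher in PSPC1-Y523F/PTK6 were both ribosomal RNAs, MT-RNR1 with 134 and 3973 reads and MT-RNR2 with 1177 and 22061, the cytochrome b gene MT-CYB with 829 and 9569, MT-ND5 and MT-ND6 of complex I with 843 and 5707 and 244 and 1374, and the proline transfer RNA MT-TP with 17 and 406. Summed, these 6 genes had 154 RPM in PSPC1-Y523F and 1775 in PSPC1-Y523F/PTK6, 49.6 in mock, 3520 in PSPC1, 134 in PSPC1/PTK6 and 188 to 375 in the Mahlavu libraries. Lower were 8 genes, among them MT-CO1 with 152346 and 42891 reads, MT-ND2 with 26527 and 8854 and MT-ATP6 with 21472 and 7803, and summed they had 15930 and 4958 RPM. PSPC1-Y523F held the highest value of the 5 for all 8. Mitochondrial genes took 1.74% of the reads in PSPC1-Y523F and 0.759% in PSPC1-Y523F/PTK6. The 2 libraries in which the RRP genes were high are those in which the mitochondrial ribosomal RNAs were high. The labels describe selection of RNA by poly-T beads and the study's methods depletion of ribosomal RNA, and the part of library preparation in this pattern was not tested. Several of these genes carry ribosomal RNA in their symbol or full name, and whether reads or genes were filtered by name in some libraries was not tested either, so their values may not be levels of transcription. Of 9 RNAs without poly(A) tails above the filter 0 were higher and 1 was lower, beside 3.78% and 2.2% of all genes. The lower one was RN7SL2, with 1334 and 647 reads. The median of the 9 was 0.60, but the 7 histone genes were all above 0 and the 2 structural RNAs below 0. The histone median was 0.61, and the structural RNAs were at −1.15 and −0.88. Without the mitochondrial and RRP genes, 455 genes were higher and 265 lower.

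The addition of PTK6 to PSPC1 shares no library with its addition to PSPC1-Y523F, and the 2 pairs can be set side by side. PSPC1 itself was higher in both pairs, by 4.25 with PSPC1-Y523F and 1.49 with PSPC1, and PTK6 by 1.12 and 1.05. In the wild-type pair too, the differences in PSPC1 and in PTK6 cannot be told apart. Of the 469 higher genes, 122 were also at least 2-fold higher in PSPC1/PTK6 than in PSPC1, which is 26.0% of the former and 31.9% of the 383 higher genes of the wild-type pair, where 3.09% of all genes were higher. Of the 273 lower genes, 43 were lower in both, 15.8% of the former and 18.5% of the 232 of the latter, where 1.87% were lower. Opposite directions at 2-fold were seen for 30 higher and 15 lower genes, and 14 of the 30 were mitochondrial or RRP genes. Genes lower in both pairs included COL6A3, ADARB2, CALB2, NTN1, NRP2 and CCL2, with log2 differences between −1.87 and −4.42 with PSPC1-Y523F and between −2.14 and −3.74 for PSPC1. Genes higher in both included IFITM1 (3.31 and 4.86), OAS1 (3.15 and 4.10), IFI6 (2.96 and 3.57), IRF7 (2.42 and 2.34), PXDN (2.19 and 3.42) and ITGB3 (1.96 and 1.91). LINC00942, TRPV2 and ERBB3 differed at least 2-fold in the PSPC1-Y523F pair, at −4.59, 3.24 and 1.499, and had values of −0.91, 0.75 and −0.15 in the wild-type pair. Whether the 2 pairs differ in these genes was not tested.

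**Figure D4:**
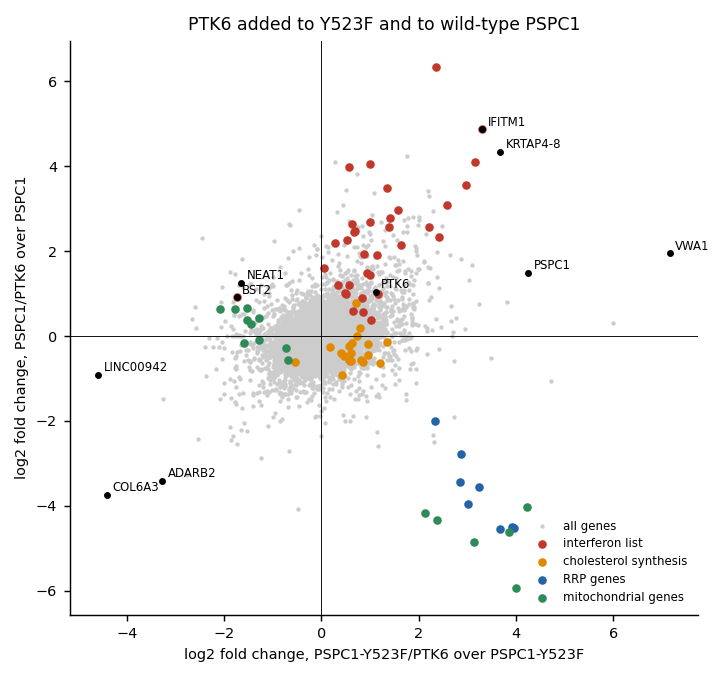
The log2 difference with PTK6 added to PSPC1-Y523F (horizontal) against that with PTK6 added to PSPC1 (vertical), 1 point per gene. Interferon genes (red) mostly lie above 0 in both pairs, with BST2 below 0 in the first, COL6A3 and ADARB2 lie low in both, and the 8 RRP genes (blue) are higher in the first pair and lower in the second.

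The position of each library against mock, PSPC1 and PSPC1/PTK6 describes which of the 2 stood apart for a gene. Of the 469 higher genes, PSPC1-Y523F/PTK6 alone lay above the range of these 3 libraries for 144, PSPC1-Y523F alone below it for 145, both lay outside for 131 and neither for 49. Of the 273 lower genes, PSPC1-Y523F/PTK6 alone lay below the range for 45, PSPC1-Y523F alone above it for 125, both outside for 84 and neither for 19. With quantile normalization, the PSPC1-Y523F library thus stood apart more often among the lower genes. This depended on the normalization. PSPC1-Y523F/PTK6 lay below the range for 129 of 273 lower genes here, but for 182 of 290 with FPKM as deposited. With FPKM scaled to the same sum, this was 201 of 322. The called genes were spread over the genome, from 4.07% of the genes on chromosome 7 to 10.4% on chromosome 21, where 125 genes passed the filter, with 87.5% of the 16 mitochondrial genes. Short rows of neighbours past 2-fold in the same direction included HOXD10, HOXD-AS2 and HOXD9, which were higher, HOXB3, HOXB-AS3 and HOXB4, which were lower, and ETNK2, KISS1, GOLT1A and PLEKHA6, which were higher.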

How the data were processed

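RNA was extracted from SK-hep1 transfectants and sequenced in 1 library per condition. Of the 10 libraries, 2 were compared, and 6 more served for normalization and as a frame. For each gene the authors deposited raw counts and, beside these, FPKM. The submitters' processing notes name TopHat2 2.0, HTSeq 0.6.1, edgeR and GRCh38.p12, and the study's methods name hg18. The tables list 58302 genes after 8 lines without a gene were left out, and 97.6% of 58039 genes shared with GENCODE 29 lie at its GRCh38 positions. Symbols came from GENCODE 29 and a current symbol table. Strandedness of the counting is not given in the sources used here, so reads of overlapping genes cannot be told apart.

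The deposited FPKM were quantile normalized over the 8 SK-hep1 and Mahlavu libraries, the study's stated step. Log2 ratios were taken after adding 1, genes averaging 1 FPKM or more between both libraries were kept, and 2-fold was the threshold. No test was made. Intervals are 95% exact Poisson or exact binomial (Clopper-Pearson), a count of 0 was set to a floor of 3 reads per library for bounds, and both cover counting error only, since the reads carry no molecular identifiers. The named genes are the 15 largest rises and the 15 largest falls with a symbol and at least 100 reads, the genes the study assayed, and EGFR. List members past 2-fold and, in lists without any, the most read members are named too. List members below 2-fold, neighbouring genes, MAGEA3 and the RRP genes were chosen after their values were seen. These libraries, the members and the lists were chosen with earlier results of these data known. The calculations were tested on simulated data. Huh-7 libraries were not used here, and some list members are not reported here. Python 3.11.15, numpy 2.4.6, pandas 2.3.3, scipy 1.17.1, matplotlib 3.10.9, and edgeR 4.0.16 in R 4.3.3 for TMM factors were used. Alternatives were another added value, FPKM as deposited or scaled to the same sum, normalization within SK-hep1, TMM-scaled counts, other filters and another threshold.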

Additional observations from a re-analysis of the deposited data

Results flagged for a closer look

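For 20 of the named or listed genes the 2 additions of PTK6 moved at least 2-fold in opposite directions, up with PSPC1-Y523F and down with PSPC1 or the reverse. The difference between the pairs was not tested, since each condition has 1 library. With PSPC1-Y523F, 8 genes named RRP were higher and with PSPC1 lower. Their log2 differences with PSPC1-Y523F were 3.97 for RRP9, 3.92 for RRP12, 3.66 for RRP7A, 3.23 for RRP1, 3.01 for RRP36, 2.87 for RRP8, 2.84 for RRP1B and 2.33 for RRP15, and with PSPC1 they lay between −2.00 and −4.54. The 6 mitochondrial genes were MT-RNR1 at 4.22, MT-TP at 3.996, MT-RNR2 at 3.84, MT-CYB at 3.13, MT-ND5 at 2.37 and MT-ND6 at 2.13, with −4.02 to −5.94 for PSPC1. METTL25B had 2.31 and −2.50, FTSJ1 2.29 and −2.33, and MRM2 1.13 and −2.26. In the other direction NKD2 had −1.35 and 1.10, NEAT1 −1.65 and 1.25, and SIGLEC6 −1.88 and 1.51. MALAT1, which was looked up after its values were seen and is not counted among the 20, had −1.46 and 1.23.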

How the results depend on the processing

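With 1 library per condition, leaving out a replicate or pairing replicates could not be done, and a value below rests on counting depth alone. No paired analysis was possible because each condition has 1 library. The counts of genes at least 2-fold higher and lower, 469 and 273, became 193 and 76 with 5 added in place of 1, 280 and 133 with a mean of at least 5 FPKM, and 1290 and 1150 at 1.5-fold, and the lower count became 497 with 0.1 added. Genes higher in both pairs, 122, became 48 with 5 added and 78 with at least 5 FPKM. Genes lower in both pairs, 43, became 77 with 0.1 added, 12 with 5 added and 20 with at least 5 FPKM. Higher genes in which PSPC1-Y523F/PTK6 lay above the other SK-hep1 libraries, 275, became 124 with 5 added and 161 with at least 5 FPKM. Lower genes in which it lay below them, 129 of 273, became 219 with 0.1 added, 34 with 5 added and 55 with at least 5 FPKM. They became 182 of 290 with FPKM as deposited and 201 of 322 with FPKM scaled to the same sum. The log2 difference of PSPC1 became 3.33 with 5 added and 4.74 with counts scaled by TMM, and that of PTK6 0.783 and 1.40. Counts scaled by TMM gave 637 higher and 244 lower genes. The median of all genes was −0.11 with FPKM scaled to the same sum and 0.04 with TMM. Without the mitochondrial and RRP genes, an alternative chosen after seeing the data, 455 and 265 genes remained. For the 30 named genes, 0 of 234 values under the alternatives changed sign and 4 fell below 2-fold. The interferon median stayed between 0.76 and 1.18 and its higher members between 9 and 21. The median of the whole cholesterol list of synthesis, uptake and control genes, 0.58 over 26 genes, stayed between 0.51 and 0.70.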
